A study of Mus musculus with 46 samples.

Results

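A group of 10 genes that report on glucocorticoid and metal signalling was described: the receptor gene Nr3c1, the glucocorticoid-responsive genes Fkbp5, Tsc22d3, Sgk1, Ddit4, Per1, Klf9 and Zbtb16, and the metallothioneins Mt1 and Mt2. They were taken by gene symbol, and all 10 were listed in each of the 3 expression tables of the series, out of 21231 genes listed in at least 1 table. All 10 passed the limit on low values in the LPS and SVZ tables, and 9 passed in the GLOBAL table, where Zbtb16 was too low.

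Samples were C57BL/6 mice in 3 experiments, measured by RNA sequencing in 46 libraries. In the LPS experiment (24 libraries), myeloid cells were sorted from whole hemispheres of mice that were 2 months old at the start, with a CD11b+CD45int gate. Control microglia (CON) came from vehicle-treated mice, and white matter repopulating cells (WM) from mice given the CSF1R inhibitor PLX3397 for 14 days and then left 28 days without it. Mice received lipopolysaccharide (LPS, 0.33 mg/kg) and cells were collected at 6 hr (CON n = 5, WM n = 4) or 24 hr (n = 4 each), while 0 hr mice received no LPS (CON n = 3, WM n = 4). In the GLOBAL experiment, the same gate was applied to mice that were 2 months old at the start, as vehicle-treated controls (n = 4) or given PLX3397 for 7 days followed by 28 days of recovery (n = 3), with no LPS. In the SVZ experiment, subventricular zone tissue was taken from mice that were 1.5 months old at the start: controls, mice given PLX3397 for 14 days, and mice with a further 5 days of recovery (n = 5 each). The WM cells are a mixed population defined by treatment and gate, with no lineage label in these libraries. Libraries held 5.24 to 10.4 M reads (M for mega) in the LPS experiment, 2.21 to 5.37 M in GLOBAL and 4.57 to 10.6 M in SVZ. Levels are in FPKM, fragments per kilobase of gene length and per mega of fragments.

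Glucocorticoids are steroid hormones of the adrenal cortex that rise with stress and with systemic inflammation. They bind the receptor encoded by Nr3c1, which moves to the nucleus, binds DNA and raises the transcription of feedback and anti-inflammatory genes. Metallothioneins are small cysteine-rich proteins that bind zinc and copper, and their genes respond both to metals, through the factor MTF1, and to glucocorticoids and cytokines. Corticosterone and metals were not measured in these samples, so the values below are transcript levels alone.

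The start regions of members are shown because they carry the DNA letters through which metals and glucocorticoids are known to act. RefSeq start windows (GRCm38.p6, 250 bases before to 50 after a start) were found for 8 of the 10 members, in 16 windows, out of 32851 windows in all. The core of the metal response element was searched as TGCACNC and TGCGCNC on both strands. Mt2 held 4 such cores and Mt1 held 3, while 1.97% of all windows held 3 or more and 0.517% held 4 or more. In the windows of the metallothioneins, capitals mark these cores. The full palindromic glucocorticoid response element was searched as the half-site AGAACA, 3 bases of any kind and the reverse half-site TGTTCT, so it also counts as 2 half-sites. It was present in 3 of the 32851 windows (0.00913%), 1 of them at an inner start of Sgk1, where capitals mark it. The half-site AGAACA was held by 19% of all windows. These matches are descriptions, and absence of the letters from the window of another member says nothing of binding elsewhere in the gene.
Mt2 (chr8:94172368-94172667, plus strand): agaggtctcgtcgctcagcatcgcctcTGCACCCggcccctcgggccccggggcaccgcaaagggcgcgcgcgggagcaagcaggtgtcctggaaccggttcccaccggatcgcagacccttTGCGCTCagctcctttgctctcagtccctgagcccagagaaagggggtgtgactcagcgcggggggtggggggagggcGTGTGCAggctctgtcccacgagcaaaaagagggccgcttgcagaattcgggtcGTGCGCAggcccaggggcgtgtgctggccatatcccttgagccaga
Mt1 (chr8:94178839-94179138, plus strand): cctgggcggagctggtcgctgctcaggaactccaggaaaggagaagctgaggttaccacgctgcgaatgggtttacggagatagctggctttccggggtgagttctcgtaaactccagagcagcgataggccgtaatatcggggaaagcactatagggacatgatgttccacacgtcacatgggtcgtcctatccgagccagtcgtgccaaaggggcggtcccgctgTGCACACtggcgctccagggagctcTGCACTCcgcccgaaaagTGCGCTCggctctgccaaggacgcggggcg
Sgk1 (chr10:21993640-21993939, plus strand): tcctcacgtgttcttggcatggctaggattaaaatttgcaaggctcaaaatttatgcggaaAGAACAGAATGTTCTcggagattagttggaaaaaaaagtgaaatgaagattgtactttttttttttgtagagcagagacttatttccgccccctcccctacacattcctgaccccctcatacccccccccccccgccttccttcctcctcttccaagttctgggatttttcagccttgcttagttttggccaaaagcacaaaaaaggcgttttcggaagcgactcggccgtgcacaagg

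The members lie at separate places in the genome, except for the metallothionein pair. In the GENCODE annotation of GRCm38 (the assembly also named mm10, which the submitters' processing notes give), Mt2 spans 94172664 to 94173568 and Mt1 94179082 to 94180327 on the plus strand of chromosome 8, with 6418 bases between their starts. Fkbp5 lies on chromosome 17 (28399094 to 28517527, minus strand), Tsc22d3 on chromosome X (140539528 to 140600659, minus strand) and Per1 on chromosome 11 (69095217 to 69109960, plus strand). Sgk1 (21882184 to 21999903, plus strand) and Ddit4 (59949669 to 59951834, minus strand) are both on chromosome 10. Klf9 is on chromosome 19 (23141226 to 23168134, plus strand), Zbtb16 on chromosome 9 (48654297 to 48836222, minus strand) and Nr3c1 on chromosome 18. All are protein-coding. Mt2 is the one member with an exon overlapped by another annotated gene, the antisense Gm45774, and reads of the pair cannot be told apart where strand was not kept. Values are per gene, so the alternative starts of Sgk1, Tsc22d3 and Per1 are summed.

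Of the 24 sorted libraries, 2 stood apart for the members and are named here before the results. They were picked from the members' own values after seeing the data. Calls gained or lost without both are therefore descriptions and not support. In CON_6hr replicate 2, Fkbp5, Tsc22d3, Ddit4 and Zbtb16 were below, and Mt1, Mt2 and Nr3c1 above, all other libraries of that group. Its mean correlation with its own group over all tested genes was 0.938, against 0.955 to 0.967 for the others. It also held Il1b at 1238 FPKM (87.5 to 131 in the others), Tnf at 637 (145 to 217), Cxcl10 at 2412 (69.7 to 326) and Tnfaip3 at 512 (20.1 to 65.0), all genes of the inflammatory response to LPS. Of the 10 such genes checked, Irg1, Lcn2, Nfkbiz and Socs3 were also above the group, Saa3 was within it at 9196 (5923 to 11196) and Ccl2 was below it at 585 (817 to 1439). In WM_24hr replicate 2, the glucocorticoid-responsive members Fkbp5, Tsc22d3, Ddit4, Klf9 and Zbtb16 were above all other libraries of that group, and Mt1 and Mt2 were too. Of the same 10 genes, Il1b, Ccl2, Nfkbiz, Tnfaip3 and Socs3 were within the range of the group (Il1b at 70.8 FPKM, 66.0 to 124 in the others) and Cxcl10 was below it at 48 (58.7 to 80.2), while Saa3 at 1694 (560 to 1189), Lcn2 at 175 (52.6 to 89.9), Irg1 at 29.2 (4.51 to 16.1) and Tnf at 450 (300.4 to 437) were above it. The depth of both was within the range of the rest, at 6.39 and 7.48 M reads. Summed FPKM was 609203 in CON_6hr replicate 2, against 448890 to 501688 in the others of its group. WM_24hr replicate 2 correlated with its group at 0.970, within the range of the others (0.970 to 0.979). CON_24hr replicate 4 was at 0.947, against 0.971 to 0.972 for the others of its group, and was kept in the fit without both.

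Markers of other cells were summed per library. The 10 microglial markers summed to between 7077 and 24912 FPKM over the 24 libraries, being lowest at 6 hr in both origins (7077 to 9508). The 9 neutrophil markers ranged from 432 to 15280 FPKM, with every CON_24hr library (6321 to 15280) above every CON_6hr library (894 to 5682), and with CON_6hr replicate 2 the highest of its group at 5682 and WM_24hr replicate 2 the highest of its group at 7133. The 7 monocyte markers summed to 128 to 497 FPKM at 0 hr, 1248 to 3554 at 6 hr and 212 to 1007 at 24 hr. Ependymal and choroid plexus markers ranged from 10.3 to 1355 FPKM, highest in CON_6hr replicate 1. Astrocyte markers summed to between 37.8 and 77.8 FPKM, neuron markers between 1.11 and 8.18, and endothelial and pericyte markers between 2.36 and 17.8. At 0 hr lymphocyte markers summed to 12.5 to 36.7 FPKM in CON and 42.6 to 78.0 in WM. Border-associated macrophage markers summed to 115 to 207 in CON and 69.4 to 113 in WM there. Without overlap at 0 hr, ependymal and choroid plexus markers were also higher in WM, and astrocyte, endothelial and pericyte markers lower. The part of other cells in the results below was not tested, and in bulk cells a change in the share of a cell type and a change in RNA per cell cannot be told apart. The hour of the day at collection is not given in the sources used here. Hours after LPS and clock time thus cannot be told apart for any member, nor for other clock genes. No library is labelled as without LPS at 6 or 24 hr, so LPS cannot be told apart from injection, handling and the time since.

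At 6 hr after LPS, 7 of 9 members were higher in control microglia than in cells of mice without LPS, and none was lower. The remaining member, Zbtb16, passed the limit on low values only through CON_6hr, so its tests against that group are not given and it is described by its values. Across all genes tested, 42.5% were called in that comparison (21.4% higher and 21.1% lower), with limma on log2(FPKM + 1) and a Benjamini-Hochberg adjusted p under 0.05. The median log2 fold change of the 9 was 2.38, against 0.01 over all 12684 genes tested. All 7 were higher in every 6 hr library than in any 0 hr library, where 38.1% of tested genes showed groups that do not overlap in either direction. In WM repopulating cells 7 of these 9 were higher and none was lower, against 38.8% of genes called (19.3% higher and 19.5% lower). The log2 scale with a pseudocount of 1 understates changes of genes at low FPKM.

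**Figure D1:**
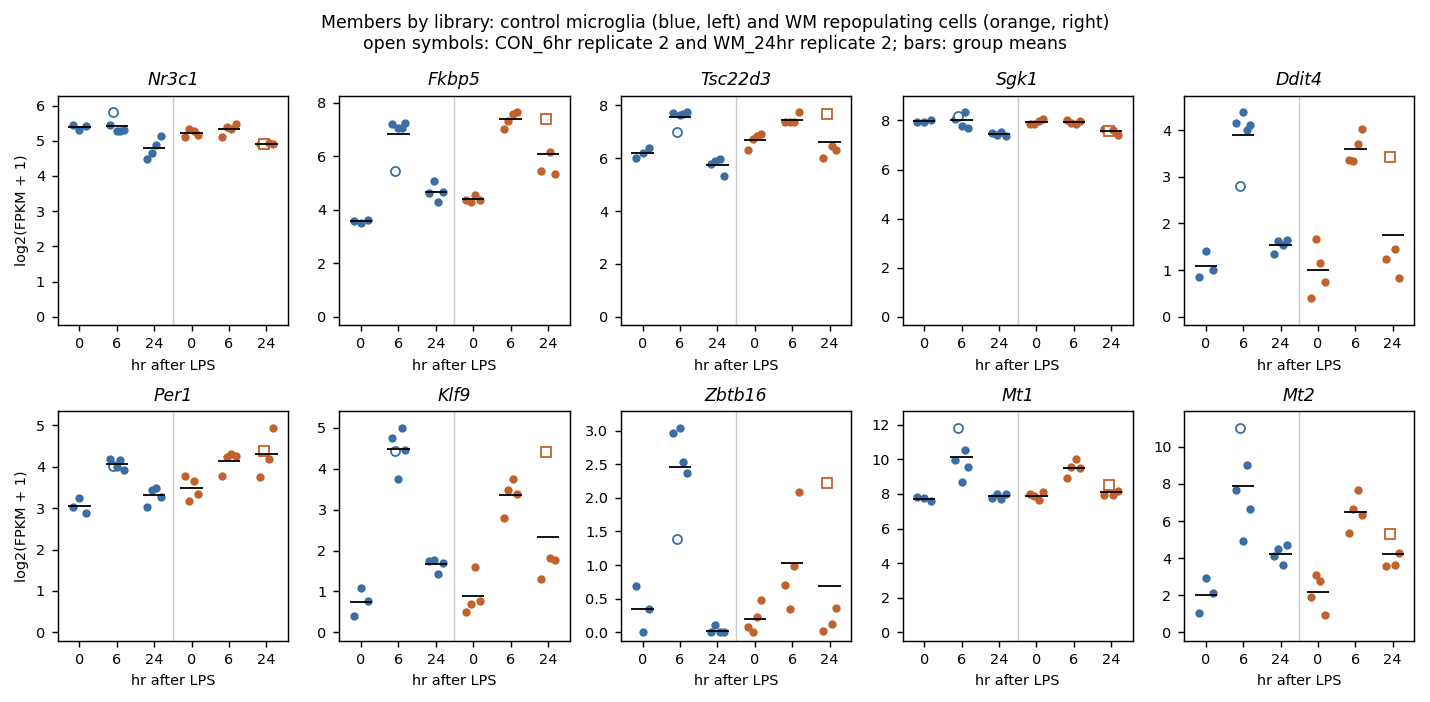
Each panel plots 1 member as log2(FPKM + 1) in the 24 sorted libraries, with hours after LPS on the horizontal axis, points for libraries and bars for group means. Open symbols mark the libraries CON_6hr replicate 2 and WM_24hr replicate 2; Fkbp5, Ddit4, Klf9 and both metallothioneins peak at 6 hr in both origins, while Nr3c1 and Sgk1 lie near their 0 hr level at 6 hr and lower at 24 hr.

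Nr3c1, which encodes the receptor itself, was present at similar levels at 0 and 6 hr. It was at 42.9, 38.2 and 41.4 FPKM in CON_0hr and at 43, 55.3, 38.1, 37.7 and 38.8 in CON_6hr, which overlap (log2 fold change 0.05 ± 0.14 SE, adjusted p = 0.822). At 24 hr it was at 21.2, 24.3, 28.6 and 34 FPKM, below every 0 hr and 6 hr control library (against 0 hr, log2 fold change −0.60 ± 0.15, adjusted p = 0.00504). WM libraries were at 33.8 to 39.4 FPKM at 0 hr, 33.6 to 43.6 at 6 hr and 29.0 to 29.6 at 24 hr. The 24 hr WM value lay below all 0 hr libraries but the difference from 0 hr missed the threshold (log2 fold change −0.31, 95% interval −0.59 to −0.03, adjusted p = 0.121).

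Fkbp5 encodes an immunophilin co-chaperone that lowers the hormone affinity of the receptor and is a standard readout of its activity. It was at 11, 10.5 and 11.3 FPKM in CON_0hr and at 148, 43, 134, 133 and 152 in CON_6hr. Even the lowest 6 hr library was above every 0 hr library (log2 fold change 3.24 ± 0.37, adjusted p = 1.70e-07). The WM libraries went from 19.5, 18.7, 22.2 and 19.4 FPKM at 0 hr to 128, 157, 189 and 199 at 6 hr (log2 fold change 3.0 ± 0.35, adjusted p = 4.16e-07). The WM and CON values thus did not overlap at 0 hr, with WM higher, but this difference missed the threshold over all genes (0.81 ± 0.38, adjusted p = 0.400), and 13.6% of tested genes had groups that do not overlap there. Without both libraries that stood apart, which only enter through the shared spread, the adjusted p was 0.0239, in a fit chosen after seeing the data. At 24 hr Fkbp5 was at 23.6, 32.8, 18.5 and 24.4 FPKM in CON and at 42.9, 169, 70.4 and 39.6 in WM.

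Tsc22d3 encodes GILZ, a leucine zipper protein that restrains inflammatory transcription. It rose in CON from 63.9 to 83.6 FPKM at 0 hr to between 127 and 213 at 6 hr (log2 fold change 1.35 ± 0.26, adjusted p = 0.000179). WM values rose from 77.4 to 121 FPKM to between 163 and 211 (0.76 ± 0.25, adjusted p = 0.0192). The WM call was lost without WM_0hr replicate 1 (adjusted p = 0.0730) or without WM_6hr replicate 4 (adjusted p = 0.0606). By 24 hr the CON values had fallen to between 39.0 and 61.4 FPKM, below every 0 hr library, without a call against 0 hr (adjusted p = 0.239).

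Sgk1 encodes a serine/threonine kinase that glucocorticoids raise in many tissues, and it holds the glucocorticoid response element printed above at an inner start. It was not called at 6 hr in either origin. CON libraries were at 243 to 260 FPKM at 0 hr and 208 to 323 at 6 hr (log2 fold change 0.05, 95% interval −0.21 to 0.30), and WM libraries at 229 to 267 and 231 to 260 (−0.00, 95% interval −0.25 to 0.25). At 24 hr it was at 180, 168, 183 and 166 FPKM in CON and 202, 189, 196 and 167 in WM, below every 0 hr library of the same origin. The fall against 0 hr was −0.52 ± 0.13 in CON (adjusted p = 0.00561) and −0.38 ± 0.12 in WM (adjusted p = 0.0283). The WM call was lost when WM_0hr replicate 3 or 4, or WM_24hr replicate 2 or 4, was left out, with adjusted p between 0.0505 and 0.0900. Ddit4, an inhibitor of mTORC1 signalling, was near the detection limit at 0 hr, with 9 to 19 reads in CON libraries and 4 to 23 in WM. It was at 0.795, 1.64 and 1.02 FPKM in CON_0hr and at 17, 5.95, 19.97, 15 and 16.2 in CON_6hr, a rise that no 0 hr library approached (2.81 ± 0.41, adjusted p = 7.47e-06). The WM libraries rose from 0.322 to 2.16 FPKM to between 9.07 and 15.3 (2.62 ± 0.40, adjusted p = 1.48e-05).

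Among the transcription factors, Klf9, a Krüppel-like repressor and direct receptor target, went from near silence to a moderate level. It was at 0.319, 1.11 and 0.716 FPKM in CON_0hr (7 to 25 reads) and at 26.1, 20.5, 12.5, 31.1 and 21 in CON_6hr (log2 fold change 3.73 ± 0.45, adjusted p = 4.24e-07). WM libraries were at 0.416, 0.631, 2.01 and 0.708 FPKM at 0 hr and at 5.97, 10.1, 12.5 and 9.48 at 6 hr (2.46 ± 0.43, adjusted p = 7.83e-05). The WM and CON ranges overlapped narrowly at 6 hr, and the difference between origins was not called (−1.12, 95% interval −1.97 to −0.28, adjusted p = 0.336). Zbtb16, encoding the zinc finger factor PLZF, was at 0 to 0.611 FPKM at 0 hr in CON and at 6.77, 1.62, 7.23, 4.80 and 4.18 at 6 hr, every one above every 0 hr library. WM libraries were at 0.0530, 0, 0.176 and 0.402 FPKM at 0 hr and 0.627, 0.272, 0.971 and 3.24 at 6 hr, which overlap and were not called (0.83 ± 0.40, adjusted p = 0.108), although a pseudocount of 0.1 gave a call (2.21, adjusted p = 0.0476), as did leaving out both libraries that stood apart (adjusted p = 0.0159). Of the 4 WM values at 6 hr, 3 lay below every CON value, and that of replicate 4 lay above 1 of the 5. Per1, a repressor of the circadian clock with a well known acute response to glucocorticoids, moved less: from 6.40 to 8.43 FPKM to between 14.1 and 17.1 in CON (1.01 ± 0.20, adjusted p = 0.000276) and from 8.05 to 12.7 to between 12.7 and 18.7 in WM, where the ranges met at their ends (0.65 ± 0.19, adjusted p = 0.01).

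The metallothioneins had the widest spread of the members between CON_6hr libraries, with a coefficient of variation of 146% for Mt2 and 87.9% for Mt1. Mt2 was nearly absent at 0 hr, with 4 to 25 reads per CON library (1.07, 6.53 and 3.36 FPKM), and stood at 206, 2086, 29.7, 520 and 99.6 FPKM at 6 hr. All 6 hr libraries were above all 0 hr libraries (log2 fold change 5.84 ± 0.84, adjusted p = 5.61e-06). The size rests on single libraries, being 5.05 without CON_6hr replicate 2 and 6.57 without CON_6hr replicate 3. In WM cells Mt2 went from 2.68, 7.40, 5.78 and 0.923 FPKM to 39.9, 98.8, 201 and 80.6 (4.34 ± 0.82, adjusted p = 0.000167). Mt1 started much higher, at 226, 219 and 189 FPKM in CON_0hr, and reached 983, 3610, 416, 1469 and 746 in CON_6hr (2.38 ± 0.39, adjusted p = 2.77e-05). The WM values rose from 202 to 272 FPKM to between 481 and 1017 (1.58 ± 0.38, adjusted p = 0.00174).

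**Figure D2:**
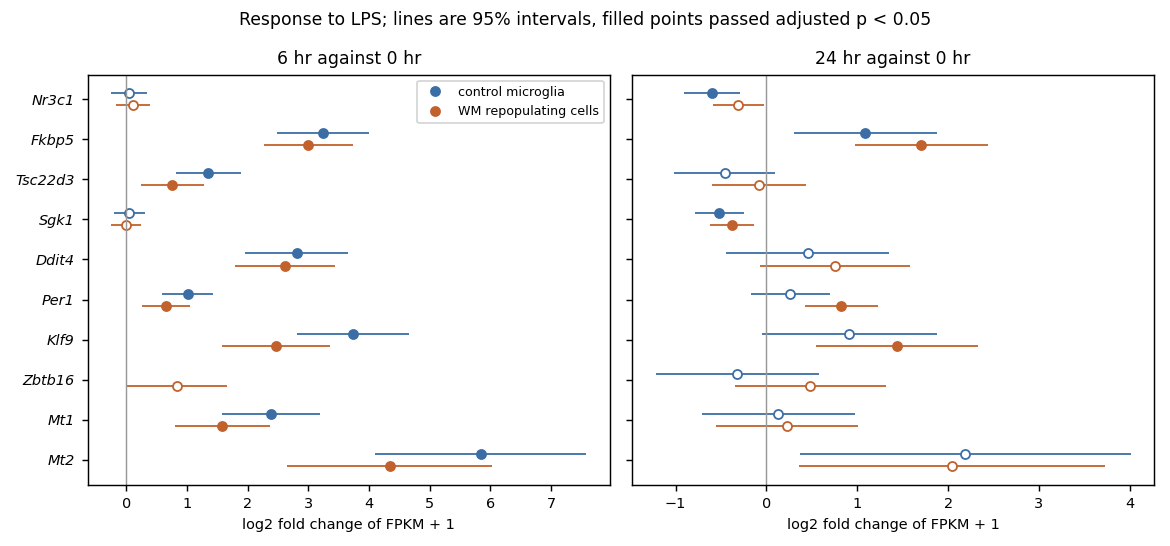
The log2 fold change of FPKM + 1 (horizontal axis) is plotted for each member at 6 hr (left) and 24 hr (right) against 0 hr, in control microglia (blue) and WM repopulating cells (orange), with 95% intervals. Filled points passed an adjusted p of 0.05, and no point is drawn for Zbtb16 in control microglia at 6 hr, which has no test there; at 6 hr Nr3c1 and Sgk1 sit near 0 in both origins, and at 24 hr most members have returned towards 0.

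The 6 hr responses of the 2 origins were set against each other by the interaction of origin and time, and none of the 9 members other than Zbtb16 was called (adjusted p from 0.701 to 0.968). Only 3 genes (0.0237%) were called in that test across the whole table, with 913 at an unadjusted p under 0.05. The widest interval was that of Mt2 (−1.50, 95% interval −3.92 to 0.92, and −0.71 without both libraries that stood apart), so differences of several-fold could not be seen for it. For Fkbp5 the interval was narrower, at −1.29 to 0.81 around −0.24.

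From 6 to 24 hr, all 9 members other than Zbtb16 fell in control microglia, where 28.3% of tested genes were called (13.3% lower and 15% higher), and in each of them every 24 hr library was below every 6 hr library, where 20.98% of tested genes had groups that do not overlap in either direction. The fall ranged from −0.56 ± 0.11 on the log2 scale for Sgk1 (adjusted p = 0.000638) to −3.65 ± 0.77 for Mt2 (adjusted p = 0.001), which was −2.86 without CON_6hr replicate 2 and −4.38 without CON_6hr replicate 3. Zbtb16 went back to 0 FPKM in 3 of 4 libraries and to 3 reads in the other. In WM cells 6 of 10 fell, where 15.7% of genes were called (7.5% lower and 8.19% higher): Ddit4 (−1.86 ± 0.40, adjusted p = 0.00241), Mt1, Fkbp5, Tsc22d3, Sgk1 and Nr3c1. The other members in WM were Per1 (0.17 ± 0.19), Klf9 (−1.03 ± 0.43), Zbtb16 (−0.35 ± 0.40) and Mt2 (−2.30 ± 0.82, adjusted p = 0.0570). Without both libraries that stood apart, 9 of 10 members passed the threshold as lower in WM, with Klf9 at −1.72 (adjusted p = 0.000194). That fit was chosen from these values, since WM_24hr replicate 2 was left out for being high in members such as Klf9. Its added calls are thus no support for a fall. Leaving out single libraries gave counts of 2 to 6: Fkbp5 was lost without WM_24hr replicate 1 or 4, Tsc22d3 without WM_6hr replicate 4 or WM_24hr replicate 1, 3 or 4, and Mt1 without WM_6hr replicate 3. Nr3c1 was lost in 10 and Sgk1 in 7 of 15 alternatives.

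At 24 hr against 0 hr, 3 members were called in control microglia, where 21.3% of genes were called (12.1% higher and 9.23% lower): Fkbp5 was higher (1.09 ± 0.38, adjusted p = 0.0442) and Nr3c1 and Sgk1 were lower. The Fkbp5 call was lost in 10 of 14 alternatives (adjusted p up to 0.113), including when any CON_0hr library or CON_24hr replicate 1, 2 or 4 was left out. In the fit without both libraries that stood apart, chosen after seeing the data, the count was 6. It added Klf9 (0.91, adjusted p = 0.0225) and Mt2 (2.19, adjusted p = 0.0208) as higher and Tsc22d3 (−0.46, adjusted p = 0.0453) as lower. Mt2 at 24 hr, at 16.1, 21.4, 11.2 and 24.7 FPKM, was above every 0 hr library, whereas Mt1, at 206 to 256 FPKM, overlapped its 0 hr range. In WM cells 4 members were called, where 18.8% of genes were (10.5% higher and 8.29% lower): Fkbp5 (1.71 ± 0.35, adjusted p = 0.00131), Klf9 (1.44 ± 0.43, adjusted p = 0.0214) and Per1 (0.82 ± 0.19, adjusted p = 0.00410) were higher and Sgk1 was lower. The Klf9 value rests on WM_24hr replicate 2, at 20.3 FPKM against 1.48 to 2.53 in the other 3 libraries, and without it the fold change was 0.74 (adjusted p = 0.0772). The call was also lost without WM_0hr replicate 1, 2 or 4.

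The origins differed at 24 hr in 3 members, all higher in WM repopulating cells, where 3.97% of genes were called (1.68% higher and 2.29% lower). The 9 neutrophil markers, all listed, summed to 3140 to 7133 FPKM in WM_24hr (median 3856, with 1 marker at 0 in replicate 4) and to 6321 to 15280 in CON_24hr (median 8879, none at 0). Their median log2 fold change was −1.22 and 1 of the 9 was called, as lower. The 8 border-associated macrophage markers summed to 87.8 to 99.0 FPKM in WM_24hr and to 111 to 141 in CON_24hr, without overlap. The 7 monocyte markers summed to 212 to 904 and to 652 to 1007. The part of these cells in the differences was not tested. Per1 was at 12.5, 19.8, 17.1 and 29.8 FPKM in WM and at 7.23, 9.83, 10.3 and 8.64 in CON, with no overlap (1.0 ± 0.19, adjusted p = 0.00381). Fkbp5 did not overlap either (1.43 ± 0.35, adjusted p = 0.0214), and 12.1% of tested genes had groups that do not overlap there. Tsc22d3 was at 62.9, 204, 87.8 and 78.7 FPKM in WM and at 54.4, 58.1, 61.4 and 39.0 in CON (0.88 ± 0.25, adjusted p = 0.0478). The Per1 call held when any single library was left out, but not in a fit of only the 2 groups compared (adjusted p = 0.0546), where no member was called. The Fkbp5 value fell to 0.99 without WM_24hr replicate 2 (adjusted p = 0.0968), and its call was also lost without CON_24hr replicate 1 or 3 or WM_24hr replicate 3, while without both libraries that stood apart it was kept (adjusted p = 0.00366). The Tsc22d3 call was lost in 13 of 15 alternatives, with adjusted p up to 0.180. At 0 hr none of the 10 members, and at 6 hr none of the 9 other than Zbtb16, was called between origins, where 1.21% (0.717% higher and 0.497% lower) and 0.323% (0.213% higher and 0.11% lower) of genes were. At 0 hr 2 of the 10, and at 6 hr 1 of the 9, had an unadjusted p under 0.05, as had 1514 and 1164 of the 12684 genes. The interaction of origin and time at 24 hr called no member (adjusted p from 0.602 to 0.984, with 0 members at an unadjusted p under 0.05), where 0.0867% of genes were called (0.0158% higher and 0.071% lower), so a difference of the 24 hr responses was not shown.

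**Figure D3:**
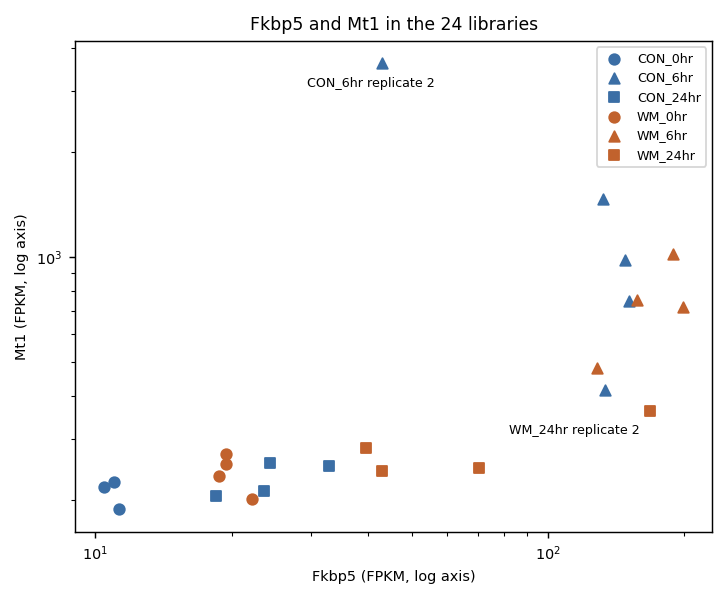
Fkbp5 (horizontal) and Mt1 (vertical) are plotted in FPKM on log axes for each of the 24 sorted libraries, with colour for origin and marker shape for hours after LPS. The 0 hr and 24 hr libraries sit at Mt1 levels of 189 to 361 FPKM, CON_6hr replicate 2 combines the highest Mt1 with a low Fkbp5 of 43, and WM_24hr replicate 2 has Fkbp5 at 169.

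In CON_6hr replicate 2, Fkbp5 was 0.304 times the mean of the other 4 libraries, Zbtb16 0.283 times, Ddit4 0.349 times and Tsc22d3 0.616 times, while Mt1 was 4.0 times and Mt2 9.75 times that mean. Klf9 (0.907 times), Per1 (0.963 times) and Sgk1 (1.14 times) were within the range of the group. In WM_24hr replicate 2, Zbtb16 was 28 times, Klf9 9.45 times, Ddit4 7.54 times, Fkbp5 3.31 times and Tsc22d3 2.67 times the mean of the other 3, and Mt1 was 1.40 times and Mt2 2.80 times that mean. Nr3c1, Sgk1 and Per1 were at 0.995, 1.0 and 1.0 times that mean. The Zbtb16 ratio rests on other libraries at 0.0188 to 0.282 FPKM, down to 1 read, so its size is imprecise. Over the 24 libraries, deviations from the group mean of Fkbp5, Tsc22d3, Ddit4, Klf9 and Zbtb16 correlated with each other at Pearson's r of 0.54 to 0.84 (10 pairs), and those of Mt1 and Mt2 at 0.87. Without both libraries the 10 pairs ranged from −0.09 to 0.41 and the metallothionein pair stood at 0.75. Klf9 and Mt2 correlated at 0.51 over all 24 libraries and at 0.81 without both, above the metallothionein pair in the latter. These correlations are descriptions over libraries that share depth and gate.

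Mt1 and Mt2 can be compared with each other within a library, since FPKM is scaled by gene length. At 0 hr, Mt1 exceeded Mt2 33.5-fold to 211-fold in CON and 31.6-fold to 294-fold in WM, where counts of 4 to 26 Mt2 reads set the precision. At 6 hr the ratio was 1.73 to 14 in CON and 5.07 to 12.1 in WM, so the Mt2 share of the pair was larger in every 6 hr library than in any 0 hr library. At 24 hr it was 10.4 to 18.4 in CON and 9.45 to 21.9 in WM, below every 0 hr library and overlapping the 6 hr range. In SVZ tissue the ratio lay between 5.09 and 6.06 in all 15 libraries.

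**Figure D4:**
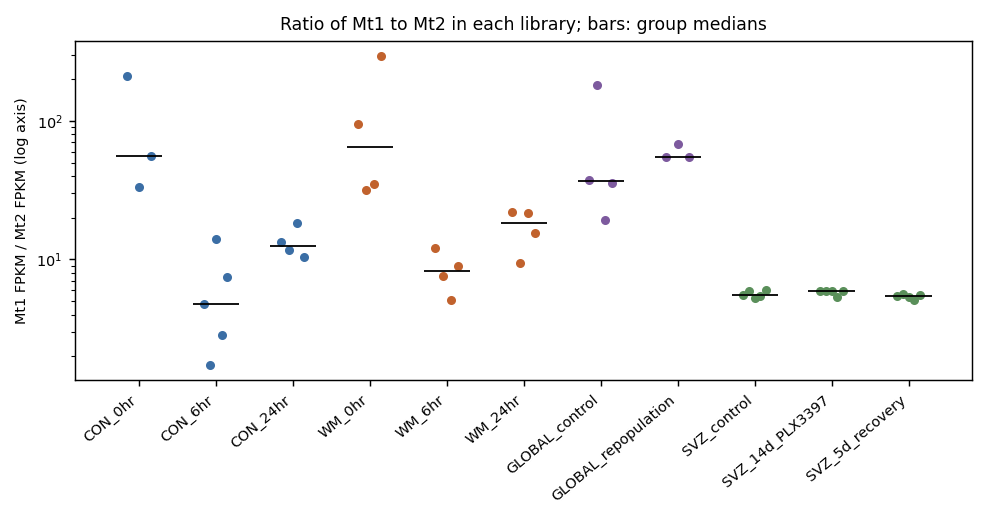
The ratio of Mt1 to Mt2 FPKM (log axis) is plotted for each of the 46 libraries by group, with bars for group medians. The median is 56.1 in CON_0hr, 4.76 in CON_6hr and 12.5 in CON_24hr, 64.8, 8.26 and 18.5 in the WM groups, and 5.47 to 5.89 in SVZ tissue.

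Other genes of these pathways were counted from lists chosen for their textbook roles, with earlier results of these data known. The counts are therefore descriptions and not independent support. The counts at 6 hr are read beside the 21.4% of all genes called higher and 21.1% called lower in CON, and 19.3% and 19.5% in WM. At 24 hr against 0 hr these shares were 12.1% and 9.23% in CON and 10.5% and 8.29% in WM, and between origins at 24 hr 1.68% and 2.29%. Of 20 other glucocorticoid-responsive genes tested, 8 were higher and 6 lower at 6 hr in CON (median log2 fold change 0.45, against 0.01 for all genes), and 5 and 6 in WM (0.13, against −0.00). Cdkn1a, a cell cycle inhibitor, rose in both (CON 2.26 ± 0.19, adjusted p = 1.95e-09, WM 1.72 ± 0.18, adjusted p = 9.56e-08). Cebpb, a factor that LPS also raises, rose by 3.10 ± 0.31 in CON and 1.65 ± 0.30 in WM. The decoy receptor gene Il1r2 rose by 4.52 ± 0.72 and 3.99 ± 0.69, and Sesn1, a stress-responsive inhibitor of mTORC1, fell by 1.54 ± 0.16 and 1.15 ± 0.16. At 24 hr, 4 of these genes were higher and 1 lower in WM than in CON, with Dusp1 (1.40 ± 0.22, adjusted p = 0.000542) and Zfp36 (1.47 ± 0.27, adjusted p = 0.00203) among the higher, both of which dampen inflammatory signalling and both of which are also immediate early genes. Against 0 hr, 4 were higher and 5 lower in CON at 24 hr, and 4 and 3 in WM.

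Of 15 chaperones, cofactors and steroid enzymes of receptor signalling, 1 was higher and 3 lower at 6 hr in CON, and 0 and 5 in WM, while at 24 hr it was 4 and 1 in CON and 1 and 0 in WM. The mineralocorticoid receptor gene Nr3c2, whose product binds the same hormones, fell in both (CON by 1.68 ± 0.22, adjusted p = 1.58e-06, WM by 1.38 ± 0.21, adjusted p = 1.75e-05). Of 21 zinc and copper handling genes, 7 were higher and none lower at 6 hr in CON, and 6 and 2 in WM (median 0.34 and 0.39). The zinc importer gene Slc39a14 led in both (3.14 ± 0.32 and 3.04 ± 0.31), followed by the copper importer gene Slc31a1 (1.30 ± 0.21 and 1.25 ± 0.21). The zinc exporter gene Slc30a1, a target of MTF1 like the metallothioneins, rose in WM from 0.593 ± 0.263 FPKM (SD, n = 4) to 1.67 ± 0.275 (n = 4), a log2 fold change of 0.75 ± 0.18 (adjusted p = 0.00201). In CON Slc30a1 was at 0.623 ± 0.131 FPKM (n = 3) and 0.991 ± 0.496 (n = 5), and the difference of the responses was not called (0.49 ± 0.26, adjusted p = 0.716).

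Of 14 clock genes, 4 were higher and 7 lower at 6 hr in CON, and 4 and 5 in WM. Per2, the partner of Per1, rose (CON 1.54 ± 0.22, WM 1.28 ± 0.21) and the clock output gene Dbp fell by 1.66 ± 0.24 and 1.87 ± 0.24. At 24 hr Dbp was still lower than at 0 hr, by 2.26 ± 0.25 in CON and 2.25 ± 0.24 in WM. Of 14 immediate early genes, which also respond to tissue dissociation, 1 was higher and 8 lower at 6 hr in CON and 2 and 9 in WM, with Fos falling by 1.97 ± 0.39 and 1.96 ± 0.38. At 24 hr, 4 of the 14 were higher in WM than in CON and none was lower, with Egr1 at 2.21 ± 0.34 (adjusted p = 0.000513) and Ier2 at 1.60 ± 0.18 (adjusted p = 1.92e-05). The part of these genes in the Per1 difference at 24 hr was not tested. Of 10 inflammatory genes taken as a check of the LPS label, 8 were higher in CON and 7 in WM at 6 hr, among them the acute phase gene Saa3 (12.12 ± 0.47 and 11.77 ± 0.46).

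The genes whose level followed each member most closely over the 24 libraries (Pearson's r on log2(FPKM + 1), as a description) differed between the members. For Fkbp5 they were Notch4 (0.954), Plet1os (0.945) and Sh3pxd2b (0.933), and for Klf9 Plet1 (0.959), Rnf169 (0.941) and Sla (0.939). Ddit4 was followed most closely by Fabp4 (0.931), and Zbtb16 by Hif3a (0.845) and by Ddit4 (0.842). Mt1 lay closest to Slc7a11 (0.961), the cystine importer gene, and Mt2 to Fmnl2 (0.953). Per1 was closest to Chd7 (0.9), Tsc22d3 to Irf2 (0.868), Nr3c1 to Adap2 (0.838) and Sgk1 to Rab31 (0.836). Mt1 and Mt2 correlated with each other at 0.93, below the genes named for each of them.

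Members were also present in the sorted cells of the GLOBAL experiment, with no LPS. None of the 9 tested members was called between repopulated and control cells, nor was any of the 16651 genes tested with limma (0%, with 1504 genes and 1 member at an unadjusted p under 0.05). Fkbp5 was at 22.5, 20.4 and 28 FPKM after repopulation and at 18.7, 17.2, 14 and 18.4 in controls, with no overlap (0.45, 95% interval 0.08 to 0.81, adjusted p = 0.480), as in 9.96% of tested genes. Sgk1 was at 245, 203 and 225 FPKM and at 165, 160, 162 and 246, which overlap through control replicate 4. Klf9 was at 0.833 to 1.63 FPKM and Mt2 at 0.815 to 11.6, beside 0.319 to 2.01 and 0.923 to 7.40 in the 0 hr cells of the LPS experiment, whereas Per1, at 41.5 to 66.7 FPKM, lay above every library of that experiment. The tables were normalized separately, so this last value is set beside the others without a test. Neutrophil markers summed to between 1267 and 22614 FPKM in these 7 libraries.

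In SVZ tissue the levels came from all cells of the region, and the 10 microglial markers summed to 208 to 278 FPKM in controls and to 16 to 19.5 after 14 days of PLX3397, being at 26.0 to 33.1 at 5 days of recovery. No member was called in any of the 3 comparisons, where 1.26% (PLX3397 against control, 0.0565% higher and 1.21% lower), 1.27% (recovery against control, 0.184% higher and 1.09% lower) and 0.325% (recovery against PLX3397, 0.29% higher and 0.0353% lower) of 14151 genes were called with limma, and 2, 2 and 1 members had an unadjusted p under 0.05, as had 866, 2346 and 2338 of all genes. Mt1 was at 547 to 887 FPKM in controls, 871 to 1078 after PLX3397 and 678 to 1058 after recovery (PLX3397 against control 0.38, 95% interval 0.08 to 0.68, adjusted p = 0.542). Mt2 was at 90.3 to 163, 150 to 182 and 124 to 187 FPKM. Klf9, nearly silent in sorted cells without LPS, was at 35.3 to 74.6 FPKM in all 15 tissue libraries, and Zbtb16 was at 1.80 to 12.4. Sgk1, at 13.2 to 30.5 FPKM, and Fkbp5, at 2.72 to 8.64, were lower in tissue than in any sorted library, again across separately normalized tables. In the recovery group, replicates 4 and 5 had the lowest Fkbp5 (2.72 and 2.92), Ddit4 (4.11 and 5.57) and Per1 (6.79 and 7.55) of their group. Choroid plexus and ependymal markers summed to 21367 FPKM in control replicate 1, against 68.3 to 171 in the other 14 libraries.

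**Figure D5:**
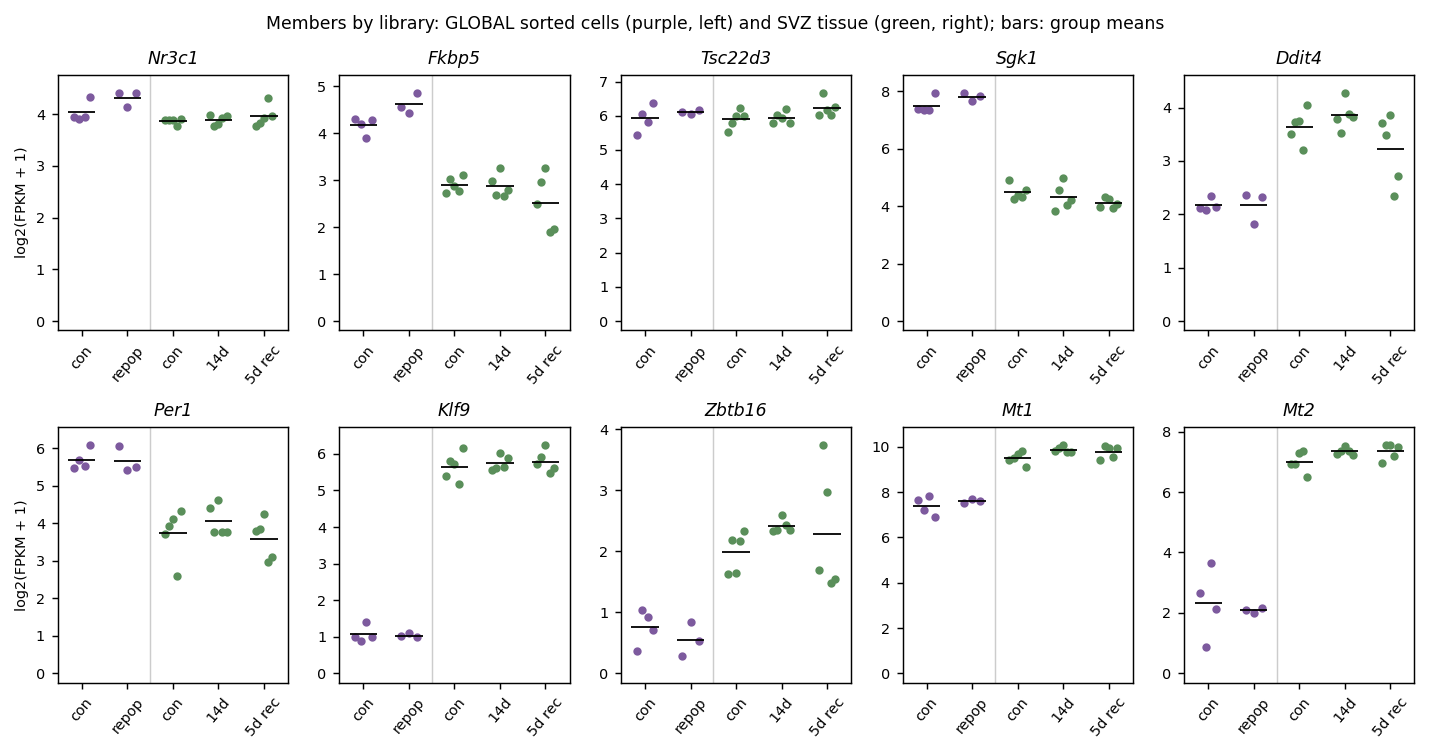
Each panel plots 1 member as log2(FPKM + 1) per library in the GLOBAL sorted cells (purple) and the SVZ tissue (green), with bars for group means. Groups overlap within each experiment except for Fkbp5 in the GLOBAL cells, and Klf9 and Mt2 stand higher in tissue than in sorted cells.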

How the data were processed

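RNA was sequenced from sorted CD11b+CD45int cells and SVZ tissue of mice. Per the methods, the authors aligned paired-end reads with STAR, counted them with featureCounts of Rsubread and normalized with edgeR and limma, and the submitters' processing notes name mm10. Versions are not printed here. The labels describe another library protocol than the methods, and strand-specific counting is not given in the sources used here. The authors deposited FPKM values (called RPKM in the methods), 1 table per experiment, and all value columns were used.

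FPKM values are whole multiples of the value of 1 read, which gave the depth of each library and the reads behind each member value (all 460 within 0.01 of a whole number). Counts were not tested. Genes reaching 1 FPKM in 3 or more libraries of their table were fitted with limma 3.58.1 (R 4.3.3, variance trend) on log2(FPKM + 1), all groups of a table in 1 fit, with Benjamini-Hochberg adjustment over all genes tested and a threshold of 0.05. Zbtb16 reached that limit in the LPS table only through CON_6hr, and no test of it against that group is given. The fit was tested on simulated data. Intervals are 95% intervals of the fit. Groups came from sample titles, and nothing in the labels says how many mice made up a library, so p-values measure the spread between these samples. No 2 libraries held identical values (0 pairs).

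All 10 members were described in every group. Pathway lists were counted in each comparison, with up to 4 genes of smallest p named, and the 3 genes of highest Pearson's r with each member were ranked. Members and lists were chosen with earlier results of these data known. Promoter sequences were from RefSeq, places from GENCODE. The alternatives were a pseudocount of 0.1, no filter, quantile normalization, no variance trend, only the groups compared, a replicate block, and leaving out each library. Leaving out CON_6hr replicate 2 and WM_24hr replicate 2 together was chosen after seeing the data.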

Additional observations from a re-analysis of the deposited data

Results flagged for a closer look

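In 90 groups of 4 or 5 libraries (10 members in each such group), 12 values stood apart from the rest of their group by Dixon's criterion. Chance alone gives about 1 in 20 groups for independent values with a normal spread. The members share libraries and were taken as raw FPKM, so the 12 cannot be read as an excess. In CON_6hr replicate 2, Fkbp5 (43 FPKM) and Tsc22d3 (127 FPKM) were low and Mt2 (2086 FPKM) was high. In WM_24hr replicate 2, Ddit4 (9.84 FPKM), Klf9 (20.3 FPKM) and Zbtb16 (3.66 FPKM) were high. In WM_6hr, Tsc22d3 was high in replicate 4 (211 FPKM) and Per1 low in replicate 1 (12.7 FPKM). In CON_24hr, Zbtb16 was at 0.0760 FPKM in replicate 2, which is 3 reads, and at 0 in the others, where any value above 0 would be flagged. In GLOBAL_control replicate 4, Nr3c1 (19.2 FPKM) and Sgk1 (246 FPKM) were high, and in SVZ_control replicate 4 Nr3c1 (12.6 FPKM) was low. The cause was not tested for any of them.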

How the results depend on the processing

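Over the alternatives, 2233 of 2318 values of single members kept their side of the threshold, 66 lost the call and 19 gained it, with Zbtb16 left out of comparisons that use CON_6hr here and in the counts that follow. The sign changed in 86 of the 2318, none of them called in either fit (lowest adjusted p 0.442 as reported and 0.501 under the alternative). With a fit of only the groups compared, the number of members called moved to 5 from 3 in control microglia at 24 hr against 0 hr, to 1 from 0 between origins at 0 hr and to 0 from 3 between origins at 24 hr. Without both libraries that stood apart, it was 6 from 3 in control microglia at 24 hr against 0 hr, and in WM cells 8 from 7 at 6 hr, 3 from 4 at 24 hr against 0 hr and 9 from 6 at 24 hr against 6 hr. Between origins it was then 1 from 0 at 0 hr, 0 at 6 hr as reported, and 2 from 3 at 24 hr. Leaving out 1 library at a time gave 7 in control microglia at 6 hr and 2 to 3 at 24 hr against 0 hr, and 9 at 24 hr against 6 hr. In WM cells it gave 6 to 7 at 6 hr, 2 to 4 at 24 hr against 0 hr and 2 to 6 at 24 hr against 6 hr, and between origins 0 at 0 hr, 0 at 6 hr and 1 to 3 at 24 hr. In both interactions, the GLOBAL comparison and the 3 SVZ comparisons the count was 0 in every alternative run. In the GLOBAL comparison, all groups of the table are the groups compared, so that alternative gave no separate value. The cause of these changes was not tested. Replicate numbers are shared between groups, and some same-numbered libraries deviated together, but not every pair did in any table. The r ranged from −0.19 to 0.27 over 55 pairs in the LPS table (7 over 0.1), from −0.15 to 0.49 over 15 in SVZ (5 over 0.1) and from 0.06 to 0.14 over 3 in GLOBAL (2 over 0.1), so the numbers were not taken as pairs. With the replicate block, the count was 7 in control microglia at 6 hr, 2 at 24 hr against 0 hr and 9 at 24 hr against 6 hr, 7, 4 and 6 in WM cells, 2 between origins at 24 hr, and 0 elsewhere. Depth limits Mt2, Ddit4, Klf9 and Zbtb16 at 0 hr, which rest on 0 to 51 reads per library. Zbtb16 was near the detection limit at 24 hr too, with 0 to 3 reads in CON libraries and as few as 1 in WM.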
